A study of Mus musculus with 64 samples.

Results

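Slc22a5, Slc22a7, Slc22a26, Slc22a27, Slc22a28 and Slc22a30 are 6 of the 26 genes of the Slc22 family of organic ion transporters in count tables of 23338 mouse genes. They were chosen by symbol, with their levels in these samples already known, and are described by stage and, within adult liver, by gender label. The samples were 64 libraries of C57BL/6 mice, each labelled as a separate sample: 12 eight-cell embryos (6 male, 6 female), 4 ES cell lines grown in 2i medium (2 male, 2 female), 24 livers of fetuses late in gestation (12 male, 12 female) and 24 livers of adult mice aged some months (12 male, 12 female). No group is labelled with a transgene or mutation. The 2i medium holds inhibitors of a mitogen-activated protein kinase and of glycogen synthase kinase, to which the other groups were not exposed. Embryo libraries were made with an amplification protocol for single cells, and the sex of an embryo was assigned in the study from its Xist and Eif2s3y reads, so those genes are no check of the embryo labels. ES cell and liver libraries came from a stranded total RNA kit.

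SLC22 proteins are carriers in the plasma membrane that move organic cations, anions and zwitterions, drugs and metabolites among them, into and out of cells. Hepatocytes and kidney proximal tubule cells are the best known sites of the family. Slc22a5 encodes OCTN2, the sodium-coupled carnitine transporter that supplies the cofactor for fatty acid entry into mitochondria. Slc22a7 encodes OAT2, an organic anion transporter of the hepatocyte. Slc22a26, Slc22a27, Slc22a28 and Slc22a30 belong to a rodent group of genes related to the organic anion transporters, and their substrates are less well known. In adult rodent liver many genes differ between the sexes through the pattern of growth hormone release, which acts by way of the growth hormone receptor, STAT5B and the repressors BCL6 and CUX2.

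The 4 rodent genes lie in a run on the minus strand of chromosome 19 (GRCm38, GENCODE M21). Slc22a26 spans chr19:7781041-7802667, Slc22a27 chr19:7864388-7966027, Slc22a28 chr19:8062209-8131982 and Slc22a30 chr19:8335371-8405111. Slc22a29, not one of the 6, lies between the last pair at chr19:8160165-8218900. Slc22a5 is at chr11:53864542-53891660 and Slc22a7 at chr17:46432183-46438457, both on the minus strand. Slc22a28 and Slc22a30 were near copies: 98.8% of the aligned bases of their coding sequences were identical. Slc22a27 shared 97.3% with Slc22a29, 91.7% with Slc22a28 and 91.8% with Slc22a30, whereas Slc22a26 shared 74.6% to 75.1% with those 3 members.

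The likeness of Slc22a28 and Slc22a30 extended upstream of the start. The RefSeq promoter table (GRCm38.p6) held 5 of the 6 genes, without Slc22a7. The stretches shown are those that align between the pair before the start, chr19:8131983-8132226 for Slc22a28 and chr19:8405112-8405355 for Slc22a30, both minus strand. They are shown because the levels of these genes differed between the gender labels to unlike degrees in adult liver. Capitals mark the 6 of 244 bases that differ, which leaves 97.5% identity.
Slc22a28: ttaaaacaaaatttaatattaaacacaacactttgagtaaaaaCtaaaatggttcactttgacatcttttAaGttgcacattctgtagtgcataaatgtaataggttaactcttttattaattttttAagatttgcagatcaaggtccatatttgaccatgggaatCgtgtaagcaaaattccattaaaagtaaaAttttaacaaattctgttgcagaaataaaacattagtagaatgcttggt
Slc22a30: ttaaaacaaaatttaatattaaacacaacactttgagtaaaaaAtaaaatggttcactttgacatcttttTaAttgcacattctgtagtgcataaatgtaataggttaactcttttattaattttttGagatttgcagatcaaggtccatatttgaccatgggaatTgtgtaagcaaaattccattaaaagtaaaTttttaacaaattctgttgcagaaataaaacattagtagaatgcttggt

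The 250 bases before the start of Slc22a26, chr19:7802668-7802917 on the minus strand, are shown as the upstream sequence of the member with the largest difference between adult females and males. Capitals mark the matches to 2 motifs that were searched, TTCNNNGAA for STAT5 and BCL6, and ATTGAT for CUX2 and HNF6, read on the other strand.
Slc22a26: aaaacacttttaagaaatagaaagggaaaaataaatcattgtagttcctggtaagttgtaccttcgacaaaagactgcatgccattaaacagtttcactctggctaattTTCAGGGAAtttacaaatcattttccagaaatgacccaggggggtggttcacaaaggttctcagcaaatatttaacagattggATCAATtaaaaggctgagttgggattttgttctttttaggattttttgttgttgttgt

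These and 3 other motifs were searched on both strands in these 250 bases of 32851 promoters, and the matches printed do not overlap. TTCNNNGAA was found in 7.02% of all promoters and ATTGAT in 6.72%. Among the 5 members in the table, each of these was found in Slc22a26 alone. The window of Slc22a19, a neighbour of Slc22a26 and not a member, also held matches to both. Slc22a19 had no read in any library, so these matches also occur before a gene without reads here. Whether they bear on the level of either gene was not tested. No member's window held GTTAAT for HNF1 (6.43% of all promoters), AAAGTCC for HNF4A (3.58%) or ATCGAT for CUX2 and HNF6 (0.728%). A match is a run of letters and not a measured binding site.

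The near copies bear on what the counts hold. Read length was not given in the sources used here, so stretches of 50 bases were taken as a round setting. Of all such stretches in the coding sequence, 57.0% in Slc22a30, 51.5% in Slc22a28 and 37.7% in Slc22a27 also occurred in a transcript of another gene, against 11.6% in Slc22a26, 19.4% in Slc22a5, mostly shared with Slc22a21, and 0 in Slc22a7. Alignments that were not unique were tallied apart from the genes. There were 1.09 to 2.26 of them per read on genes in adult males and 0.703 to 1.17 in adult females. The values of Slc22a27, Slc22a28 and Slc22a30 therefore rest on the parts in which they differ, and their levels are uncertain against those of other genes. The globin genes Hbb-b1 and Hbb-b2 had at most 0.142 CPM (the count of a gene scaled to the total of reads on genes in its library) in any fetal liver, although the erythroid enzyme gene Alas2 ranged from 994 to 1544 CPM there, and the part of that tally in this was not tested.

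Library totals on genes ran from 1567583 to 4757610 reads in adult liver, from 5145371 to 8499603 in fetal liver, from 9857929 to 10386931 in ES cells and from 4659656 to 7725432 in embryos. A level of 3 reads was 0.631 to 1.91 CPM in an adult liver and 0.353 to 0.583 CPM in a fetal liver. Eif2s3y was at 62.0 CPM or more in every liver labelled male and at 1.01 or less in every liver labelled female. All 8 hepatocyte markers, Alb among them, had reads in both liver stages. Their summed level was 46108 to 58322 CPM in adult males and 60269 to 72818 in adult females, with no overlap. The largest part was Alb, with medians of 21403 in males and 25886 in females. Each marker had a higher median in females except Apoa1, with medians of 3825 in males and 3292 in females. The summed level of the 8 erythroid markers was 160 to 198 CPM in adult males and 15.4 to 44.7 in adult females, with medians of 173.6 and 30.8, beside medians of 169.8 and 24.5 for Alas2 alone. The part of these differences in the results was not tested. In whole tissue, fewer cells of a type and less RNA per cell cannot be told apart.

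**Figure D1:**
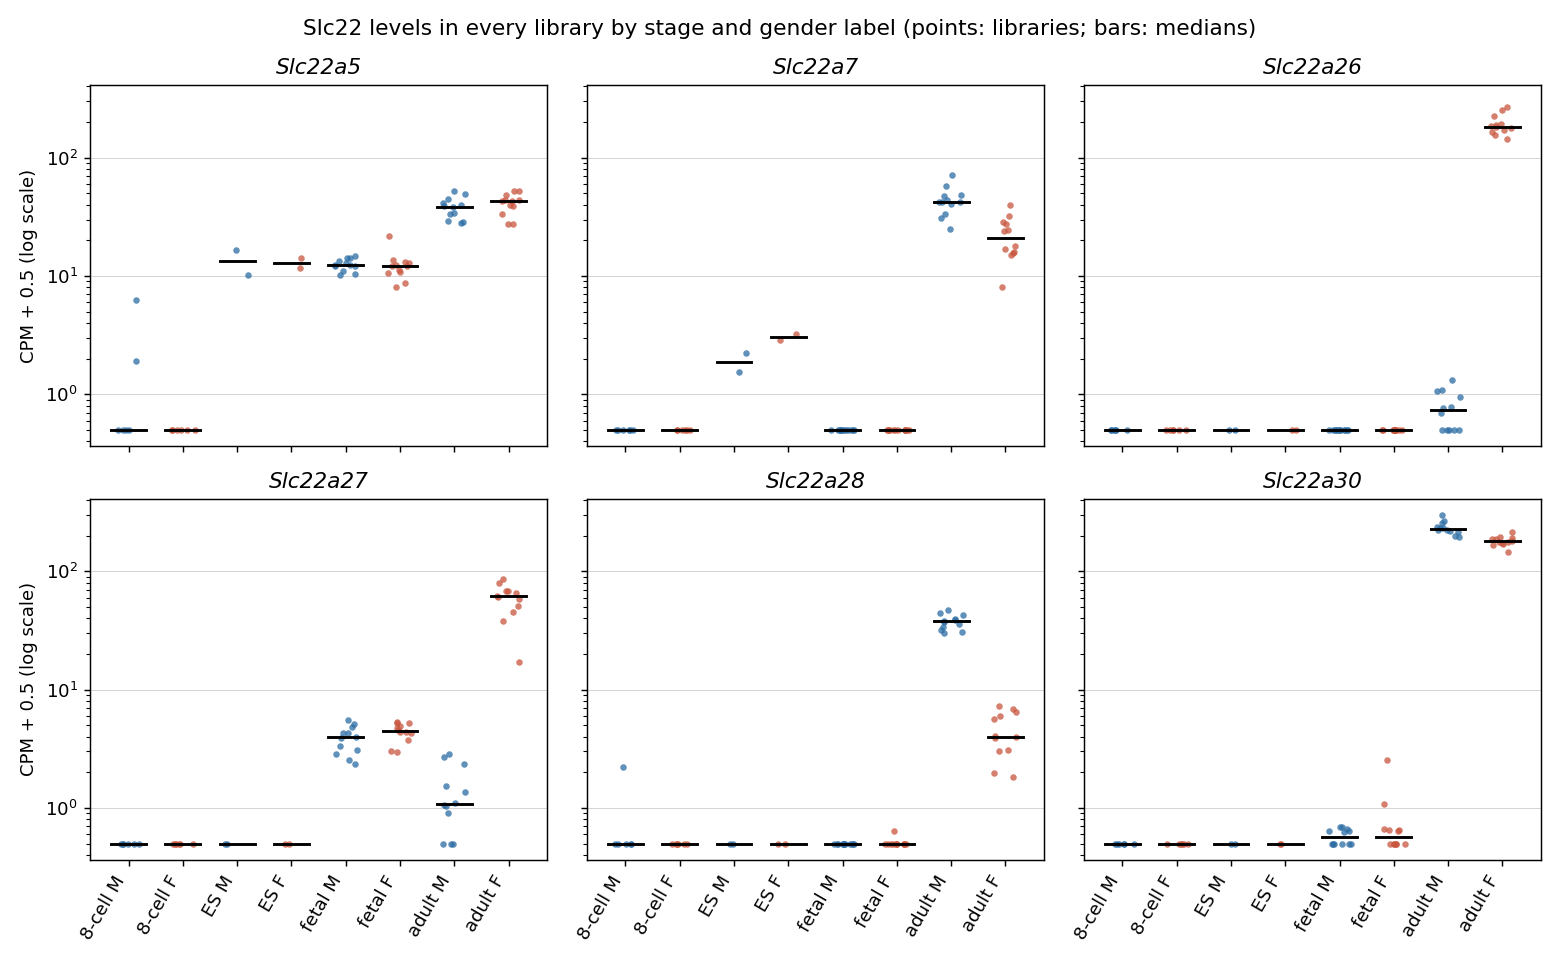
Level of each of the 6 genes in all 64 libraries, as CPM + 0.5 on a log axis, with 1 point per library, blue for male (M) and red for female (F), and a bar at each median. TMM scaling was applied within each stage. Slc22a26 and Slc22a27 were high in adult females only among the adult livers, Slc22a28 in adult males, and a value of 0 reads sits at the bottom of each panel.

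Slc22a26 was measured at a median of 182 CPM in adult females (lowest 144, highest 268, mean 192 ± 37.9 SD, n = 12) and at a median of 0.234 CPM in adult males (lowest 0, highest 0.816, mean 0.265 ± 0.285 SD, n = 12). The 12 males held 10 reads of the gene in all, in 7 of the livers, and the 12 females held 5686. Every female lay above every male. Log2 (male/female) was -9.28 (SE 0.199, edgeR), and on library totals the mean of the females was 716-fold that of the males, with a 95% counting interval of 388 to 1488. The gene had no read in any of the 24 fetal livers, 12 embryos or 4 ES cell lines. Against a floor of 3 reads over all fetal livers of the same gender label, the adult female mean was at least 5441-fold higher. The adult male mean was 6.85-fold its floor, but it rests on 10 reads, whose own counting error is not included.

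Slc22a27 had the same direction in adult liver, at a lower level and with a wider spread. Adult females were measured at 16.8 to 85.4 CPM (median 61.1, mean 57.7 ± 18.6 SD, n = 12) and adult males at 0 to 2.36 CPM (median 0.586, mean 0.869 ± 0.837 SD, n = 12). The ranges did not overlap. Log2 (male/female) was -5.90 (SE 0.307), and the female mean was 65.8-fold the male mean (counting interval 44.1 to 88.1, from 35 male reads). The lowest female was number 18, at 16.8 CPM from 42 reads in a library of 2543698, and the next lowest was number 20 at 37.4 CPM. Without female 18 the log2 was -5.99.

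In fetal liver Slc22a27 was present at a like low level under both gender labels. Males were measured at 1.85 to 5.06 CPM (median 3.44, n = 12) and females at 2.46 to 4.85 (median 3.98, n = 12), and the ranges overlapped widely. The fetal contrast was not one on which the gene was chosen, and the test gave a log2 (male/female) of -0.22 (SE 0.153) with an adjusted p of 0.295 (edgeR quasi-likelihood test, Benjamini-Hochberg over 12930 genes). Fetal males and females did not overlap in the share of reads outside genes, as given below. The fetal contrast can hardly be told from that share. Between the stages the gene went in opposite directions by gender label. The adult female mean was 14.8-fold the fetal female mean on library totals, while the fetal male mean was 3.83-fold the adult male mean (counting interval 2.57 to 5.13). Library totals moved the median log2 (adult/fetal) of all genes to -0.61, from -0.043 with TMM. They make a rise look smaller and a fall larger than TMM scaling does. The ranges of fetal and adult males overlapped, on levels scaled apart in each stage. ES cells and embryos had no read of the gene.

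Slc22a28 was higher in adult males. They were measured at 29.5 to 46.3 CPM (median 37.3, mean 37.1 ± 5.36 SD, n = 12) and the females at 1.32 to 6.77 CPM (median 3.51, mean 4.01 ± 1.89 SD, n = 12). Every male lay above every female. Log2 (male/female) was 3.22 (SE 0.157), and the male mean was 9.28-fold the female mean, with a counting interval of 7.87 to 11.5 from 114 female reads. Unlike the male value of Slc22a26, the female level of Slc22a28 was made of 4 to 21 reads in every library. The 24 fetal livers held 1 read between them, so the adult mean was 3426-fold the fetal mean with a counting interval of 599 to 131925.

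Slc22a30 was high under both gender labels. Adult males were measured at 193 to 299 CPM (median 230, mean 233 ± 29.1 SD, n = 12) and adult females at 144 to 215 CPM (median 178, mean 180 ± 17.3 SD, n = 12). The ranges overlapped, with 9 of 12 males above the highest female. Log2 (male/female) was 0.37 (SE 0.0645), under the fold threshold of 0.5. In fetal liver the gene had 29 reads in all, and 12 of 24 livers had none. Of those reads 14 were in female 22, at 2.02 CPM, and 5 in female 21, while no other fetal liver had more than 1. The adult mean was 1195-fold the fetal mean on library totals (counting interval 805 to 1726), and 2229-fold without fetal female 22 (counting interval 1297 to 3823).

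The near copies also differed in their ratio within a liver. Slc22a28 had 13.4% to 18.6% as many reads as Slc22a30 in adult males (median 15.8%) and 0.746% to 4.16% as many in adult females (median 1.89%). The ranges did not overlap. The part of reads placed on the wrong copy in either value was not tested.

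Slc22a7 had a smaller difference with overlap. Adult males were measured at 24.6 to 71.2 CPM (median 41.8, mean 43.4 ± 12.3 SD, n = 12) and adult females at 7.58 to 39.1 CPM (median 20.5, mean 21.6 ± 8.81 SD, n = 12). Of the males, 9 lay above the highest female and all 12 above the female median. Log2 (male/female) was 1.03 (SE 0.193), and female 18 was again the lowest liver, with 0.95 found without it. No fetal liver had a read of Slc22a7, so the adult mean was at least 1757-fold higher against a floor of 3 reads over the 24 fetal livers. The gene was, however, read in all 4 ES cell lines, at 1.72 and 1.05 CPM in the males (18 and 11 reads) and 2.73 and 2.37 CPM in the females (27 and 23 reads). That difference, a log2 of -0.87 (SE 0.396), had an adjusted p of 0.247 in edgeR over 12678 genes. Without male line 1 it was -1.27 with an adjusted p of 0.0601, where the lone male line is assumed to vary like the female lines. Fits of this kind gave from 0 to 3070 genes past the thresholds, depending on the line left out.

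Slc22a5 was the only one of the 6 with reads in every library of ES cells, fetal liver and adult liver. In adult liver males were measured at 27.6 to 51.4 CPM (median 37.9, mean 37.6 ± 7.85 SD, n = 12) and females at 26.8 to 51.8 (median 42.2, mean 40.6 ± 8.28 SD, n = 12), ranges that nearly coincide. Log2 (male/female) was -0.13 (SE 0.115). In fetal liver it was 9.65 to 14.4 CPM in males (median 11.9) and 7.52 to 21.2 in females (median 11.7). The log2 there was 0.02 (SE 0.117, adjusted p = 0.8996 in edgeR), in a contrast that can hardly be told from the share of reads outside genes. The adult mean was 3.28-fold the fetal mean on library totals (counting interval 3.13 to 3.42). That interval holds the counting error of the fetal reads alone. Library totals moved the median log2 (adult/fetal) of all genes to -0.61, from -0.043 with TMM. The fold of Slc22a5 is larger with TMM scaling, as given below.

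The fetal liver with the highest Slc22a5 level, female 14, stood apart in another way. The other 11 fetal females reached at most 13.1 CPM. The same liver had 327 CPM summed over the 4 cholangiocyte markers Krt19, Krt7, Epcam and Sox9, where the other 23 fetal livers had 10.4 to 35.1. Krt19 (102 CPM), Krt7 (28.7) and Epcam (194) were each above all other fetal livers, whereas Sox9, at 2.46, lay within their range of 0.308 to 9.18. Slc9a3r1 was at 142 CPM there and at 59.5 to 84.8 in the others. Genes of exocrine pancreas were uneven among fetal livers under both gender labels. Ctrb1 reached 227 CPM in males (median 0.162) and 405 in females (median 1.30), while Pnlip had no read in either. The part of other tissue in these values was not tested. With female 14 Slc22a5 varied more among fetal females than 90.7% of the genes within 1.5-fold of its level. Without it the coefficient of variation was 16.4%, and the log2 (male/female) was 0.13 with an adjusted p of 0.268 in edgeR.

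ES cells held Slc22a5 at 16.2 and 9.64 CPM in the male lines and 13.6 and 11.1 CPM in the female lines (169, 101, 135 and 108 reads), a log2 of 0.06 (SE 0.293, adjusted p = 0.926 in edgeR). Of the 12 embryos only male 1, with 35 reads at 5.82 CPM, and male 2, with 9 reads at 1.42 CPM, had any. The other read-bearing member in embryos was Slc22a28, with 14 reads at 1.73 CPM in male 4 alone. No member passed the edgeR expression filter among embryos, and reads from an amplified library of so little RNA are not a count of independent molecules.

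The order of levels between genes was set only per length of exon. In adult females the medians, in CPM per kilobase, were 61.7 for Slc22a26, 53.0 for Slc22a30, 28.4 for Slc22a27, 13.8 for Slc22a5, 9.75 for Slc22a7 and 1.75 for Slc22a28. In adult males they were 68.1 for Slc22a30, 19.9 for Slc22a7, 18.6 for Slc22a28, 12.3 for Slc22a5, 0.272 for Slc22a27 and 0.0795 for Slc22a26. In females the ranges of neighbours in this order overlapped, except that Slc22a30 lay above Slc22a27 and Slc22a7 above Slc22a28 in all livers. In males Slc22a30 lay apart from the rest, Slc22a7, Slc22a28 and Slc22a5 overlapped in turn, Slc22a5 lay above Slc22a27, and Slc22a27 and Slc22a26 overlapped. Reads that fit more than 1 gene are missing from these levels.

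Set beside all genes, 2 of the 6 were past the thresholds of adjusted p and fold in the direction of males in adult liver (Slc22a7, Slc22a28) and 2 in the direction of females (Slc22a26, Slc22a27). Of the 10372 genes tested, 3.01% were higher in males and 6.48% higher in females. Adult livers did not overlap between labels for 1.32% of genes with every male above every female, as for Slc22a28, and for 1.52% with every female above every male, as for Slc22a26 and Slc22a27. The members were chosen with this contrast known, so nothing is read from these counts. In fetal liver, where 4.64% of 12930 genes were past the thresholds, neither of the 2 members tested was. In ES cells, with 9.5% of genes past them, neither of 2 was, and in embryos, with 0.264% of 9087 genes past them, no member passed the filter of edgeR. DESeq2, run without that filter, tested 2 members in embryos and called 0.

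**Figure D2:**
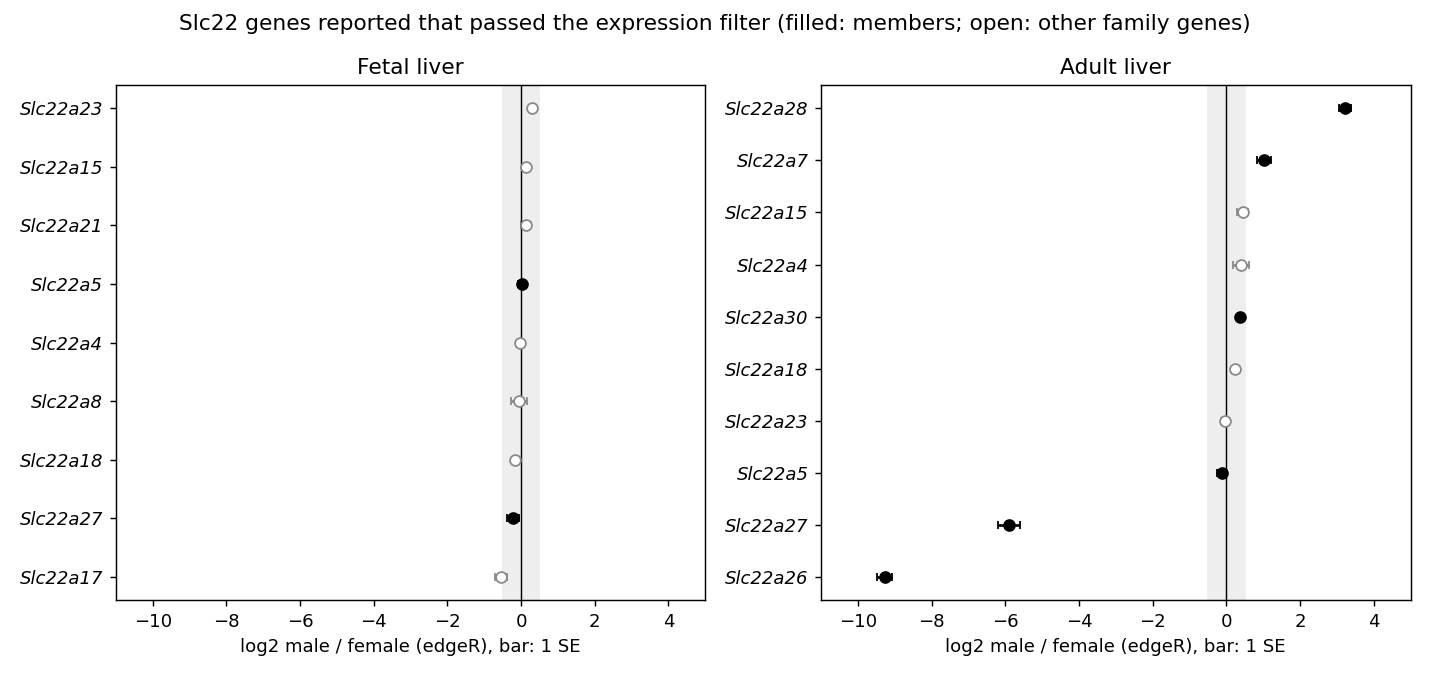
Log2 (male/female) of the Slc22 genes reported here that passed the expression filter in fetal liver (left) and adult liver (right), from edgeR, with bars of 1 SE. Filled points are members, open points other family genes, and the grey band marks an absolute log2 under 0.5. In adult liver the points outside the band are Slc22a26 at -9.28, Slc22a27 at -5.90, Slc22a7 at 1.03 and Slc22a28 at 3.22.

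The other 20 family genes served as the surroundings. In adult liver 5 of them passed the expression filter and 0 were past both thresholds in edgeR, although 3 had an unadjusted p under 0.05. DESeq2 called 1 of 15, Slc22a29. Slc22a18 had a log2 of 0.23 (adjusted p = 0.0188, edgeR) and Slc22a15 of 0.44 (adjusted p = 0.0314), both under the fold threshold. The median log2 of the 5 was 0.23, beside -0.00094 over all genes. Slc22a29, the near copy of Slc22a27, was too low for the filter, at 1.04 to 9.12 CPM in females and 0 to 2.45 in males. Slc22a19, the neighbour of Slc22a26 in the run, had no read in any library.

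In fetal liver 7 other family genes were tested and 1 was past the thresholds. Slc22a17 had a log2 (male/female) of -0.56 (adjusted p = 0.0103, edgeR), which was -0.48 without fetal female 14 and so under the fold threshold, and with the share of reads outside genes as a covariate its adjusted p was 0.881. That share was 39.9% to 49.0% in fetal males and 34.1% to 38.1% in fetal females, with no overlap. A fit with this covariate can therefore hardly tell it from the gender label.

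**Figure D3:**
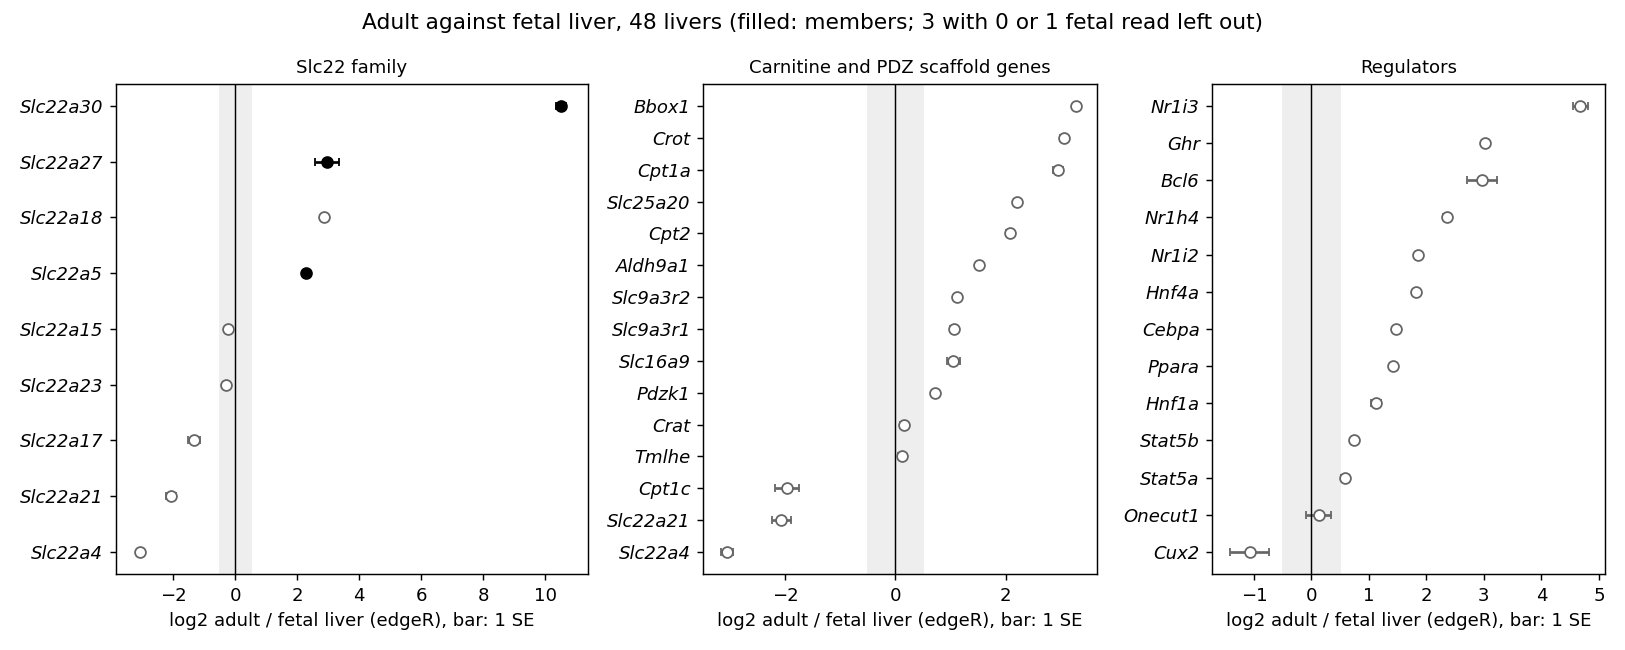
Log2 of adult over fetal liver from edgeR in 48 livers, with bars of 1 SE, for the Slc22 genes reported here (left), the carnitine and scaffold genes (middle) and the regulators (right). Filled points are members, and the grey band marks an absolute log2 under 0.5. Slc22a7, Slc22a26 and Slc22a28 are left out because the fetal livers held 0 or 1 read of each.

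Between the liver stages 31.6% of 12647 genes were higher in adult liver and 35% lower. Slc22a5 had a log2 (adult/fetal) of 2.27 (SE 0.0844), Slc22a27 of 2.96 (SE 0.389, and 1.64 in DESeq2) and Slc22a30 of 10.52 (SE 0.162), and these stand as descriptions. The value of Slc22a27 joins opposite directions in females and males, as given above. Of 7 other family genes tested, 2 were higher in adult liver and 3 lower, with a median log2 of -0.28 beside -0.043 over all genes. Slc22a18 rose by a log2 of 2.85 (SE 0.0643, adjusted p = 1.96e-42, edgeR). Slc22a4, which encodes OCTN1, a transporter of ergothioneine, fell by 3.05 (adjusted p = 9.47e-34, edgeR). Slc22a21, a relative of Slc22a5, fell by 2.07 (adjusted p = 2.51e-16) and Slc22a17 by 1.34 (adjusted p = 8.2e-09). Slc22a4 was at 46.0 to 82.2 CPM in fetal males and 3.12 to 8.25 in adult males, so the level of this neighbour of Slc22a5 went the other way.

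Genes of carnitine synthesis and use were taken as the pathway of Slc22a5. Of 12 tested between the stages, 7 were higher in adult liver and 3 lower, with a median log2 of 1.28. The 3 were Cpt1c, at -1.97, and Slc22a4 and Slc22a21, which are also counted in the family. Bbox1, the last enzyme of carnitine synthesis, rose by 3.28 (adjusted p = 1.15e-54, edgeR). Crot, the peroxisomal carnitine octanoyltransferase, rose by 3.06 (adjusted p = 1.59e-43) and Slc25a20, the carnitine carrier of the mitochondrial inner membrane, by 2.21 (adjusted p = 1.06e-42). Bbox1 was at 26.0 to 38.0 CPM over all fetal livers and 163 to 233 over all adult livers. Between adult males and females 1 of 10 tested genes was past the thresholds, Slc16a9, a carrier that exports carnitine, with a log2 of -0.50 (adjusted p = 0.0235, edgeR). It lost the call in all 8 alternatives that kept the fold threshold. In fetal liver 0 of 12 were past them in edgeR, with 3 at an unadjusted p under 0.05.

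The PDZ proteins Pdzk1, Slc9a3r1 and Slc9a3r2 bind the tails of several SLC22 carriers at the membrane. All 3 were higher in adult liver, by a log2 of 0.71, 1.06 and 1.12 (largest adjusted p = 8.05e-22, edgeR). On library totals only 1 of the 3 was past the thresholds. Between adult males and females 0 of 3 passed, with 2 at an unadjusted p under 0.05.

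Among 13 regulators known for Slc22 genes or for sex differences in liver, 3 were past the thresholds between adult males and females. Bcl6, a repressor of growth hormone target genes, was at 7.45 to 70.9 CPM in males and 1.95 to 33.8 in females, a log2 of 1.79 (SE 0.431, adjusted p = 0.0035, edgeR). Cux2, a repressor known in female liver, was at 0 to 0.628 CPM in males and 16.6 to 56.4 in females, a log2 of -6.07 (SE 0.266, adjusted p = 3.99e-18). Nr1i3, the nuclear receptor CAR, had a log2 of -0.68 (SE 0.138, adjusted p = 0.00068). Cux2 fell into groups that did not overlap, whereas those of Bcl6 did overlap. Hnf4a, a main hepatocyte factor for Slc22 genes, had a log2 of 0.15 (adjusted p = 0.206). In fetal liver Onecut1 alone was past the thresholds, at a log2 of 0.82 (adjusted p = 0.00388, edgeR). With the share of reads outside genes as a covariate it was 0.06. That share did not overlap between fetal males and females, so such a fit can hardly tell it from the gender label. Between stages 11 of 13 were higher in adult liver and 1 lower, Cux2 at -1.07. Mean Cux2 was 39.8 CPM in fetal and 0.382 in adult males, and 32.7 in fetal and 29.99 in adult females, on levels scaled apart in each stage.

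The same lists were tested in the other samples. Between ES cell lines 0 of 5 other family genes and 0 of 7 regulators passed in edgeR, with 0 and 4 at an unadjusted p under 0.05. DESeq2 called 0 of 11 and 0 of 13, with 0 and 1 at an unadjusted p under 0.05. Tmlhe, an enzyme of carnitine synthesis on the X chromosome, had a log2 of -2.08 (adjusted p = 0.0579) and Slc9a3r2 of -0.54 (adjusted p = 0.0814). In DESeq2 the scaffold gene past the thresholds was Slc9a3r1 in place of Slc9a3r2. Without either female line no gene passed. Between embryos 0 genes of any list passed in edgeR or DESeq2, and 0 had an unadjusted p under 0.05. The difference of the male to female ratio between adult and fetal liver was past the thresholds for 13.7% of 13026 genes, for 1 of 8 other family genes (Slc22a4), 2 of 12 carnitine genes (Slc22a4 again and Slc16a9), 1 of 3 scaffold genes and 3 of 13 regulators.

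The members' levels were then compared within 1 gender label of the adult livers, on log2 (CPM + 0.5). Over 16 pairs with a median of at least 10 reads, 2 were past an adjusted p of 0.1. In the 12 males Slc22a28 and Slc22a30 went together, with a Pearson r of 0.765 (permutation p = 0.00334, adjusted 0.0443) and a Spearman rho of 0.797 (permutation p = 0.00263, adjusted 0.0421). Without the 2 livers farthest from the median of Slc22a28 the r was 0.857, and after removing a line on library depth it was 0.908. These are the near copies, and the part of reads placed on the wrong copy was not tested. In the 12 females Slc22a27 and Slc22a30 had an r of 0.775 (permutation p = 0.00554, adjusted 0.0443), but a rho of 0.559 (permutation p = 0.063, adjusted 0.504). The r was 0.406 without the 2 farthest livers and 0.463 without female 18, so it rests on those livers. The other 14 pairs did not pass, with r between -0.42 and 0.44.

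**Figure D4:**
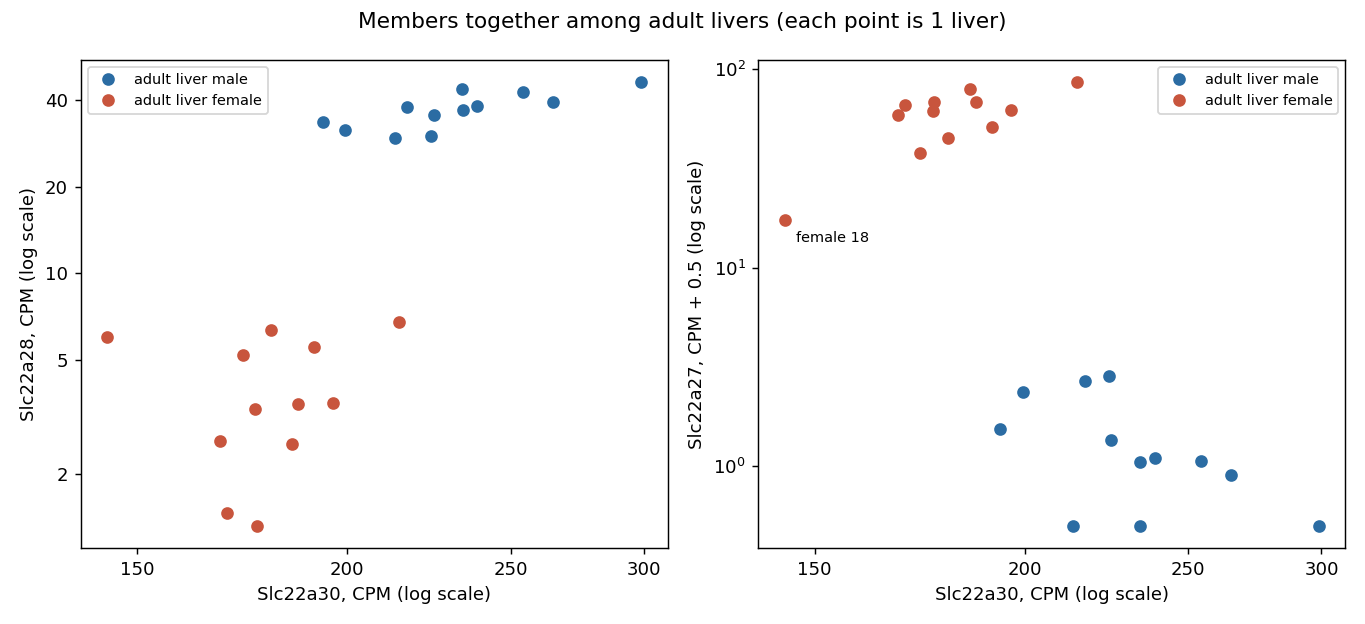
Slc22a28 (left) and Slc22a27 (right) on the vertical axes against Slc22a30 on the horizontal axes in the 24 adult livers, in CPM on log axes, with 1 point per liver and 0.5 added to Slc22a27. The 12 males (blue) run together on the left with an r of 0.765, and female 18 lies apart at the lower left of the females on the right.

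Among members with a median of at least 10 reads, adult livers of 1 gender label differed most in Slc22a7 and Slc22a27. The coefficient of variation of Slc22a7 was 40.7% in adult females and 28.4% in adult males, and 97.5% and 94.5% of the genes within 1.5-fold of its level had a lower one. Slc22a27 had 32.1% in adult females beside a median of 13.4% for genes near its level. Slc22a30 had 9.58% in females beside 11.4%, and Slc22a28 14.5% in males beside 13.9%. The remaining values in adult liver also lay above the median of genes near their level. Of those genes, 89.1% had a lower value than Slc22a26 in females and 72.1% a lower one than Slc22a30 in males. For Slc22a5 that share was 85.5% in males and 82.4% in females. Female 18, lowest of the 12 for Slc22a7, Slc22a27 and Slc22a30, was at 180 CPM for Slc22a26, close to that gene's female median of 182. Its median Spearman correlation with the other females over all genes, 0.949, was the second lowest, above 0.945 for female 19.

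The genes whose levels were most like each member's were taken over the 24 adult livers, with the mean of each gender label subtracted. They were sought among 8288 genes of at least 10 CPM, with the members themselves left out. The r is a description, since all genes of a liver share its library. For Slc22a5 they were Eci2 (r = 0.822), Acadm (0.788) and Hsd17b4 (0.765), 3 genes of fatty acid oxidation in mitochondria and peroxisomes. For Slc22a28 they were Atp8b1 (0.857), Slco1a1, an organic anion carrier of the hepatocyte (0.814), and Elovl2, a fatty acid elongase (0.810), although the female part rests on 4 to 21 reads a liver. For Slc22a27 they were Slc16a7 (0.850), a monocarboxylate transporter, Rdh16 (0.799), a retinol dehydrogenase, and the clock gene Per3 (0.795). For Slc22a30 they were Ugt2b5 (0.710), a glucuronosyltransferase, Abcg2 (0.673), an efflux pump, and Ola1 (0.666). For Slc22a7 they were Phkb (0.778), Ndrg2 (0.746) and Shmt2 (0.742), and for Slc22a26 Pex26 (0.721), Ogfrl1 (0.680) and Rsu1 (0.669). The male part of these values rests on 0 to 3 reads a liver for Slc22a26 and 0 to 8 for Slc22a27. Without female 18 the 18 values lay between 0.568 for Abcg2 and 0.845 for Slco1a1.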

How the data were processed

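RNA-seq of 64 libraries was analysed from raw counts that the authors deposited: reads assigned to each of 23338 genes by HTSeq after TopHat2 2.0.4 and Bowtie2 2.1.0 alignment to mm10 with SAMtools 0.1.18 and Picard duplicate removal, per the labels and the study's methods. Strand setting of the counting was not given in the sources used here. The 5 tally rows per file (reads outside genes, ambiguous, low quality, not aligned, not unique) were kept out of totals and tests. Depth limits low values as stated. Counting intervals (95%, exact Poisson) and floors of 3 reads cover only the counting error of the denominator of a fold. The numerator was taken as exact, and the spread between samples is not in them.

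Males and females were compared within each stage with edgeR 4.0.16 in R 4.3.3 (TMM, filterByExpr, robust quasi-likelihood F test, two-sided), and adult with fetal liver and the stage by gender interaction over 48 livers. Calls needed a Benjamini-Hochberg adjusted p under 0.1 and an absolute log2 above 0.5, as in the study, which used DESeq2. The SE of a log2 was its size over the square root of F. CPM used TMM factors within a stage, and folds between stages and their intervals used library totals. DESeq2 1.42.0, other scalings, no filter, a covariate and left-out libraries were alternatives. Some of these, library totals within a stage, a line on depth and livers left out by number, were chosen after seeing the data. Permutation tests used 100000 resamples in Python 3.11.15 with scipy 1.17.1, two-sided. Coding sequences (GENCODE M21) were aligned with Biopython 1.88. Scripts were tested on simulated data. Every member was named. Other Slc22 genes past the thresholds were named, except that values of some genes are not reported here although they stay in the counts and medians of their lists, with at most 3 of the carnitine and scaffold lists by smallest adjusted p, and regulators, Slc22a19 and Slc22a29 after their values were seen. The 6 genes and all lists were chosen with earlier results of these data known. The labels give no litter, cage or preparation batch, so p-values measure only the spread between these samples. Per its methods, the study drew its discovery embryos from fewer litters than there were embryos, so some were littermates. Which ones is not labelled, and the embryo tests treat all embryos as independent.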

Additional observations from a re-analysis of the deposited data

Results flagged for a closer look

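In the 6 male eight-cell embryos 1 embryo lay far above the rest for each of 2 members. Slc22a5 was highest in male 1 at 5.82 CPM, with 1.42 CPM in male 2 and 0 in the other 4, and Slc22a28 was highest in male 4 at 1.73 CPM, with 0 in the other 5. Only these 2 sets of values could be looked at in this way, since every other set of 6 was at 0 throughout. The usual chance rate of about 1 in 20 holds for neither gene. For Slc22a28 a lone embryo with reads among embryos at 0 is always marked, and for Slc22a5 the other 4 embryos are tied at 0.

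The male to female ratio differed between adult and fetal liver for 6 genes of the lists, by the interaction test in edgeR, in which 13.7% of 13026 genes were past the thresholds. The difference of log2 (male/female), adult minus fetal, was -6.38 for Cux2 (adjusted p = 4.56e-24), 1.36 for Bcl6 (adjusted p = 0.0345), -0.74 for Nr1i3 (adjusted p = 0.0135), -0.59 for Slc16a9 (adjusted p = 0.0332), 0.51 for Slc9a3r1 (adjusted p = 0.000235) and 0.51 for Slc22a4 (adjusted p = 0.0838). Slc22a4 lost the call with the title number as a block (0.49, adjusted p = 0.157), without the expression filter (adjusted p = 0.105) and, by its fold, in DESeq2 (0.49), and Slc9a3r1 lost it, by its fold, in DESeq2 (0.497). Fetal female 14 had 142 CPM of Slc9a3r1, where no other fetal liver had more than 84.8. The interaction was not fitted without that liver, so how far the Slc9a3r1 call rests on it was not tested. Fetal males and females did not overlap in the share of reads outside genes, and the part of this in the fetal ratio was not tested within the interaction.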

How the results depend on the processing

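Over the alternatives, 129 of 147 values for the main results were kept, by a rule that differed with the kind of value. For tested log2 values and correlations the direction and the side of the threshold had to hold, whatever the size. For the members' described log2 values the direction had to hold, with a move smaller than the spread between livers. For counts of genes only the size was compared. The members' log2 (male/female) in adult liver moved by less than the spread between livers in all alternatives. The count of genes between adult males and females, 984, was 1518 without an expression filter and 3400 without a fold threshold. In fetal liver 600 became 1057 without the filter, 4807 without the fold threshold and 9 with the share of reads outside genes as a covariate, and 82.2% of the calls were higher in males against 61.0% without the filter and 91.5% without female 14. In embryos 24 became 80 in DESeq2. In ES cells 1205 ranged from 0 to 3070 when a line was left out, with 0 (1163 and 1290 at an unadjusted p under 0.05, edgeR) without either female line, and the log2 ranged from -0.36 (without male line 1) to 0.38 for Slc22a5, turning to -0.083 without female line 4, and from -1.27 to -0.57 for Slc22a7.

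The log2 of Slc22a5 in fetal liver, near 0, turned to -0.00036 in 1 fit over 48 livers. Between stages library totals moved the median of all genes from -0.043 to -0.61 and the share of calls higher in adult liver from 47.4% to 25.3%, and Slc22a5 was 1.71, or 1.57 relative to hepatocyte markers. Slc22a27 was 1.64 in DESeq2. The r of Slc22a27 and Slc22a30 in females was 0.463 (adjusted p = 0.554) without female 18. With the covariate, Cpt2 (0.041), Crat (0.059), Slc9a3r1 (0.13) and Slc9a3r2 (0.14) turned sign in fetal liver, where it did not overlap between the gender labels. Causes of these changes were not tested. Title numbers shared by fetal and adult livers belong to separate animals (correlation of deviations -0.0955 to 0.0515 over 24 pairs), and with the number as a replicate block 8419 genes were past the thresholds between stages against 8425, and 1661 in the interaction against 1787.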
